A study of Homo sapiens with 10 samples.

Results

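Metallothioneins are small cysteine-rich proteins that bind zinc, copper and cadmium and buffer the free zinc of the cell. MTF1 is the transcription factor that senses zinc and binds short metal response elements in the promoters of metallothionein genes and of SLC30A1, the zinc exporter of the plasma membrane. Metallothionein genes are also known as targets of glucocorticoids and of oxidative stress, and several of them are known to be silenced by DNA methylation in tumours. The 8 genes described here are 6 metallothioneins (MT1E, MT1F, MT1G, MT1M, MT1X and MT2A), MTF1 and SLC30A1. They were taken by symbol from the 62709 entries with values in the count table. The set was chosen by the read counts of MT1E, which were 0 in the TET1 knockout, so the knockout values of all members are given as a description without a test.

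The RNA came from H441, an established human lung adenocarcinoma line, in 10 libraries. In 3 libraries (KO) the gene for TET1, an enzyme that oxidises methylated cytosine, had been knocked out of the wild-type line with CRISPR-Cas9, and whether KO was 1 clone is not stated in the labels. In 2 libraries (OE) the cells carried a transiently transfected plasmid with full-length human TET1. The control for OE was a pair of libraries titled Lipo, labelled as untreated wild type and with a title that the labels do not explain. The other 3 libraries were untreated wild type (WT).

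Total counts ran from 20994462 to 25981097 per library. TET1 itself had 17883 and 20805 reads in OE and 0 to 8 reads in each of the other 8 libraries, so its reads do not check the knockout. Of 9 lung epithelial markers, 8 were at 29.3 CPM (the read count relative to the library size as scaled by TMM) or more in every library, and SCGB1A1 had no reads. Summed, the 9 stood at 7550 to 10084 CPM in KO, 11338 to 11490 CPM in OE, 10529 to 10912 CPM in Lipo and 10154 to 11589 CPM in WT, so that KO lay below WT without overlap. The 5 blood markers summed to at most 0.649 CPM in any library and the 3 endothelial ones to at most 2.62 CPM. The 4 fibroblast markers summed to 70.9 to 77.7 CPM in KO, 343 to 351 CPM in OE, 169 to 183 CPM in Lipo and 177 to 289 CPM in WT, with PDGFRB at 0, COL1A2 at 0.217 CPM or less and COL1A1 and LUM expressed. WT 1 stood apart from the other WT libraries: a chi-square statistic of its counts per degree of freedom was 42.7 against WT 2 and 46.5 against WT 3, and 6.37 between WT 2 and WT 3. In KO the 3 pairs lay at 39.6 to 65.0. Mitochondrial genes took 5.44% to 7.25% of the reads in KO, 4.74% and 4.89% in OE, 8.72% and 8.04% in Lipo and 5.47% to 6.15% in WT.

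The metallothionein genes lie side by side on chromosome 16 and their coding sequences are near copies of each other. The first 60 coding bases of the transcripts in GENCODE release 29 are shown for the 4 members with reads and for MT1M, the nearest annotated coding neighbour of MT1E, because reads from such copies can be hard to assign. Capitals mark bases that differ from MT1E.
MT1E: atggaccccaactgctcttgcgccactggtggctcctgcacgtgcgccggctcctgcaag
MT1M: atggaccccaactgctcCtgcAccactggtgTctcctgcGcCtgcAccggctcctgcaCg
MT1F: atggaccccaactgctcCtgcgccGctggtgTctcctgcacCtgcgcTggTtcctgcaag
MT1X: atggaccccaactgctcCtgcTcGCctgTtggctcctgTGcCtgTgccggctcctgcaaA
MT2A: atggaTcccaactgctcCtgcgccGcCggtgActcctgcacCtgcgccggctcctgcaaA

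Over these 60 bases MT1M and MT2A each differed from MT1E at 7 positions, MT1F at 6 and MT1X at 10. Over the whole coding sequence, identity with MT1E was 92.3% for MT1M, 92.3% for MT2A, 91.8% for MT1F, 93.0% for MT1G and 90.7% for MT1X. Of the 655 windows of 50 bases in the MT1E transcript, 94.7% occurred in no transcript of another gene, and so did each of its 605 windows of 100 bases. For MT2A the share of 50-base windows found nowhere else was 95.1%, for MT1F 96.4% and for MT1M 92.9%. It was 79.8% for MT1G and 54.9% for MT1X, whose exons overlap a noncoding transcript (ENSG00000259827) on the same strand. Read length, the strand setting and whether multiply mapped reads were counted are not given in the sources used here, so the counts of the metallothioneins, and of MT1X above all, carry that uncertainty.

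Of the 8 members, 6 had reads and passed the filter on low counts. MT1G (ENSG00000125144, chromosome 16, 56666731 to 56668065, minus strand, GRCh38) and MT1M (ENSG00000205364, chromosome 16, 56632233 to 56633986, plus strand) had 0 reads in all 10 libraries, which allows up to 0.0130 CPM for each over the pooled libraries. Per kilobase of exon (RPKM), MT2A led in WT with 238 ± 61.3 (SD, n = 3), followed by MT1E with 62.8 ± 26.1. By this measure SLC30A1 (4.80 ± 1.16), MTF1 (4.77 ± 0.356) and MT1X (4.13 ± 0.896) came next and did not differ beyond their spread. MT1F was the lowest of those detected at 1.12 ± 0.185 RPKM in WT. The divisor was the union of all annotated exons, 1773 bases for MT1X and 1889 for MT1F. Their transcripts compared above are only 450 and 690 bases long. The order of MT1X against SLC30A1 and MTF1 therefore depends on the divisor. MT1F stays the lowest of those detected with its shorter length too. In bulk RNA, fewer expressing cells and less RNA per cell cannot be told apart.

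MT1E (ENSG00000169715, chromosome 16, 56625475 to 56627112, plus strand) encodes a metallothionein of the MT1 group. It had 0 reads in each of the 3 KO libraries, against 97.7, 48.3 and 52.2 CPM in WT 1, WT 2 and WT 3. OE 1 and OE 2 held 44.3 and 46.9 CPM of MT1E, and Lipo 2 and Lipo 3 held 57.4 and 67.6 CPM. Each library outside KO held 898 or more reads of MT1E, and the KO libraries held none. Against a floor of 3 counts over the pooled KO libraries (0.0420 CPM), MT1E was at least 1555-fold lower in KO than in WT. This bound, which is lower by construction when fewer KO libraries are pooled, was 993 without KO 2, 1050 without KO 3, 1061 without KO 1 and 1193 without WT 1. Floors and intervals cover counting error only.

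**Figure D1:**
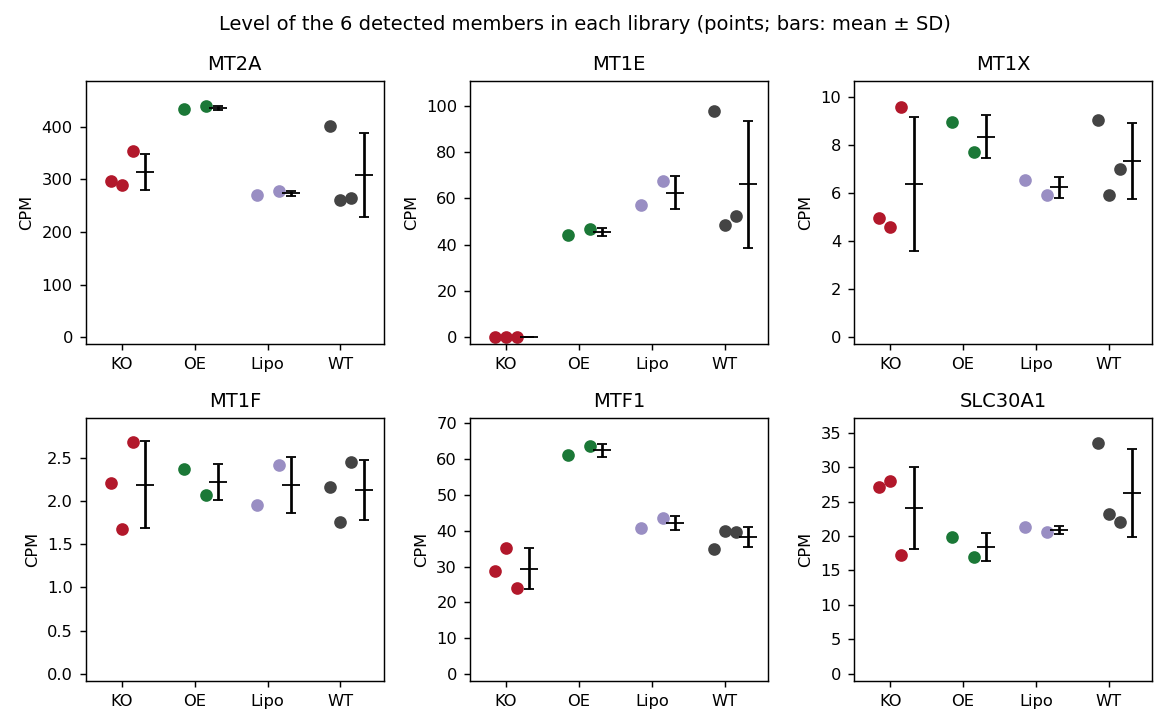
Level of the 6 members with reads, in CPM scaled by TMM (linear axes from 0), in KO, OE, Lipo and WT. Each point is a library and each bar the mean ± SD of its group. MT1E is at 0 in all 3 KO libraries, whereas the KO and WT points of the other 5 genes overlap.

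The paralogs of MT1E did not share its absence. MT2A (ENSG00000125148, chromosome 16, 56608199 to 56609497), the most abundant metallothionein of this line, had 298, 290 and 354 CPM in KO, against 401, 261 and 265 CPM in WT. The KO values of MT2A lay inside the WT range, with a fitted log2 fold change of 0.02 (SE 0.15), or 0.25 without WT 1. MT1X (ENSG00000187193, chromosome 16, 56682424 to 56684196) had 4.94, 4.57 and 9.57 CPM in KO, against 9.05, 5.92 and 7.01 CPM in WT. KO 1 and KO 2 were below every WT library and KO 3 above them, so the log2 fold change of -0.20 (SE 0.27) was -0.62 without KO 3, -0.02 without WT 1 and -0.01 without KO 2.

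MT1F (ENSG00000198417, chromosome 16, 56657694 to 56660698) was low throughout, with 2.21, 1.68 and 2.68 CPM in KO against 2.16, 1.76 and 2.45 CPM in WT (log2 0.04, SE 0.30). In counts that was 43 to 62 reads per KO library and 46 to 56 per WT library. MT1F showed no difference larger than the spread between libraries.

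The regulator and the exporter overlapped between KO and WT as well. MTF1 (ENSG00000188786, chromosome 1, 37809567 to 37859620, minus strand) had 28.8, 35.3 and 23.9 CPM in KO, against 35.0, 40.1 and 39.8 CPM in WT. KO 1 and KO 3 were below the lowest WT library, and KO 2 just above it. The log2 fold change of MTF1 was -0.38 (SE 0.15), or -0.53 without KO 2. SLC30A1 (ENSG00000170385, chromosome 1, 211571568 to 211578742, minus strand) had 27.1, 27.9 and 17.3 CPM in KO, against 33.5, 23.2 and 22.0 CPM in WT. Its log2 fold change of -0.12 (SE 0.20) was 0.09 without WT 1 and 0.07 without KO 3. WT 1 was the WT library in which SLC30A1, MT2A, MT1E and MT1X were all highest.

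Over the 6 detected members, KO and WT did not overlap for 1, MT1E, while 27.6% of all 15832 genes tested had groups that did not overlap (13.1% higher and 14.5% lower in KO). The test called 12.6% of all genes in KO against WT, 5.13% higher and 7.45% lower, and nothing is read from the members against these shares because MT1E chose them. The median KO to WT difference of the 5 detected members other than MT1E was -0.12 on the log2 scale, beside 0.0034 for all genes tested.

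The gap at MT1E sat between neighbours that kept their reads. From MT2A to MT1X the annotation places 16 genes that the table also lists, and 5 of them had any read. MT2A ends 15.98 kb before MT1E and MT1F starts 30.6 kb after it, and KO held 22337 reads of MT2A and 155 of MT1F, against 22146 and 152 in WT. The 7 annotated genes between MT1E and MT1F (MT1M, MT1JP, MT1A, MT1DP, MT1CP, MT1B and the noncoding ENSG00000259923) had no reads in any group. MT1L, 6.66 kb before MT1E, had none either, and the noncoding ENSG00000260823 next to MT2A had 8 reads in KO, 0 in OE, 0 in Lipo and 5 in WT. In the table as a whole, the 7 other metallothionein genes looked for (MT1A, MT1B, MT1H, MT1HL1, MT1L, MT3 and MT4) had no reads, and only the pseudogenes MT1P1, MT1P3 and MT1XP1 had any, with 1, 2 and 18 reads over all libraries.

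**Figure D2:**
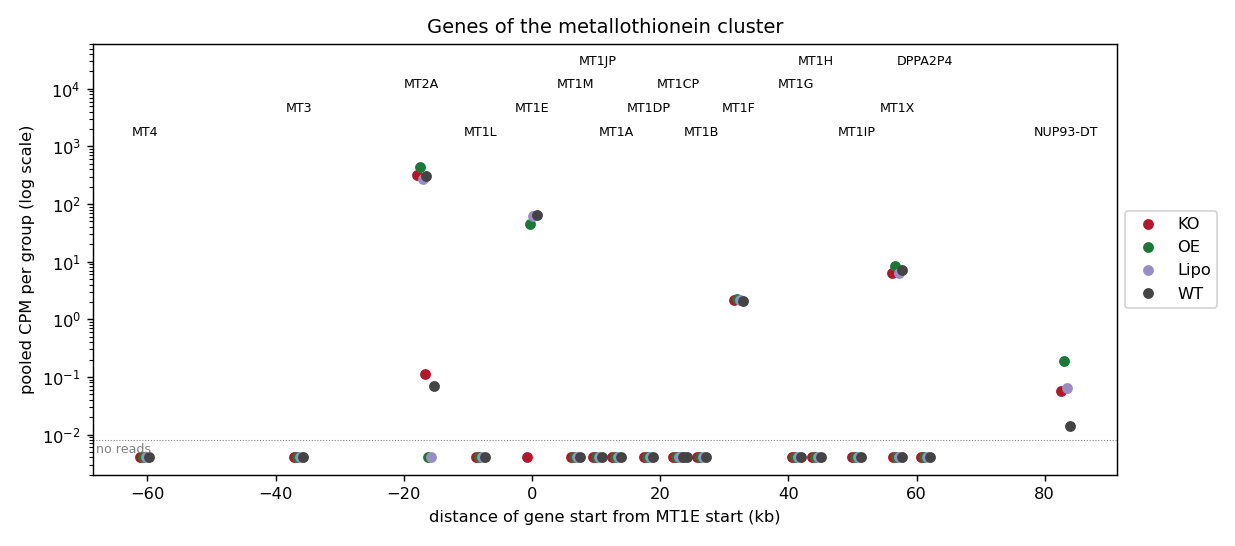
Pooled CPM per group (log scale) of the annotated genes around MT1E, against the distance of each gene's start from that of MT1E in kb; groups are set slightly apart for sight. Points under the dotted line had no reads. KO lies among the other groups at MT2A, MT1F and MT1X and falls under the line at MT1E.

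The share of each gene in the metallothionein reads was also set side by side. MT1E gave 0% of the metallothionein reads in KO, 9.04% and 9.44% in OE, 17.1% and 19.2% in Lipo, and 15.2% to 19.2% in WT. MT2A gave 96.6% to 97.9% in KO, 88.6% in both OE libraries, 78.5% and 80.4% in Lipo, and 78.6% to 82.3% in WT. The summed level of the 6 genes was 322 ± 37.9 CPM in KO (SD, n = 3), 493 ± 4.60 CPM in OE (n = 2), 344 ± 12.4 CPM in Lipo (n = 2) and 385 ± 109 CPM in WT (n = 3). Without MT1E the sum was 322 ± 37.9 CPM in KO and 318 ± 81.1 CPM in WT, so the remaining genes together differed by less than the spread between libraries. WT 1 raised the summed WT level, being highest in MT2A, MT1E and MT1X but not in MT1F. Without WT 1 the sum over all 6 genes was 321.4 CPM in KO and 321.1 CPM in WT.

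Relative to MT2A in the same library, a ratio that no scaling can move, MT1E stood lower in OE than in Lipo and WT. The ratio also falls when MT2A rises. Between OE and Lipo, MT2A rose (log2 0.68), and MT1E was lower without being called (log2 -0.46). OE 1 and OE 2 had 10.2 and 10.7 MT1E reads per 100 MT2A reads, against 21.3 and 24.4 in Lipo 2 and Lipo 3. The WT libraries had 24.4, 18.5 and 19.7. Both OE libraries lay below all 5 wild-type-labelled ones. The ratio was formed after its parts were known, so it is a description.

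**Figure D3:**
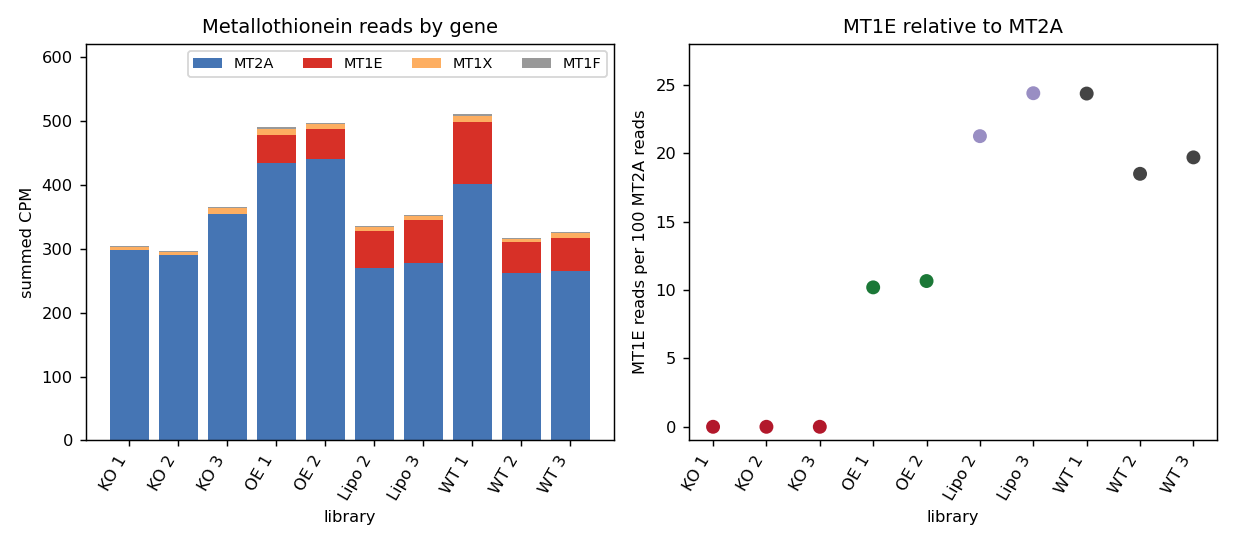
Left, summed CPM of the metallothioneins in each library, stacked by gene; right, MT1E reads per 100 MT2A reads in each library. Libraries run KO, OE, Lipo, WT. The MT1E segment is missing in KO. In OE it is thinner and the MT2A segment taller, and the ratio is 10.2 and 10.7 against 18.5 or more in Lipo and WT.

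OE was set against Lipo to see which members differ between them. OE cells carried a transfected plasmid, Lipo is labelled untreated, and no group is labelled as carrying an empty plasmid. Effects of TET1 and of transfection therefore cannot be told apart in any comparison of OE here. MT2A, the most abundant member, rose in OE by a fold of 1.597, and MTF1 was higher without passing the threshold. MT2A had 434 and 440 CPM in OE, against 270 and 277 CPM in Lipo (log2 0.68, SE 0.19, edgeR adjusted p = 0.0286). Both OE libraries were above both Lipo libraries. The size of the difference was 0.65 to 0.69 when any 1 of these 4 libraries was left out, but the call then ended, with edgeR adjusted p = 0.137 when OE 1 was dropped, 0.145 for OE 2, 0.175 for Lipo 2 and 0.162 for Lipo 3. In each of those fits the lone library is assumed to vary as the other groups do. With WT as the control, MT2A was higher by 0.50 (log2, adjusted p = 0.0418), although WT 1 reached 401 CPM. The mitochondrial share of the reads, given above, was lower in OE than in Lipo, whose libraries were the highest of all 10, and the summed fibroblast markers were higher in OE. Their part in the result was not tested.

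MTF1 had 61.2 and 63.7 CPM in OE, against 40.8 and 43.7 CPM in Lipo. All 3 WT libraries, at 35.0 to 40.1 CPM, were lower still. The OE to Lipo difference of 0.56 (log2, SE 0.18) had an edgeR adjusted p of 0.0504 and so missed the threshold. It passed with WT as the control (log2 0.71, adjusted p = 0.00521), without WT 1 (adjusted p = 0.0370), with DESeq2 (0.0293) and in several other fits, and without any 1 of the OE or Lipo libraries its edgeR adjusted p lay between 0.183 and 0.280.

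The other members did not pass between OE and Lipo. MT1E was lower by 0.46 in OE on the log2 scale (SE 0.28, edgeR adjusted p = 0.328) without overlap between the groups. It passed in a fit of only these groups (log2 -0.46, adjusted p = 1.75e-04) and with WT 1 and KO 1 left out together (log2 -0.45, adjusted p = 0.0223), and over all alternatives its adjusted p ran up to 0.686. MT1X had 8.97 and 7.73 CPM in OE, against 6.54 and 5.93 CPM in Lipo (log2 0.42, adjusted p = 0.461 in edgeR). SLC30A1 had 19.8 and 16.9 CPM in OE, against 21.3 and 20.5 CPM in Lipo (log2 -0.19, adjusted p = 0.688 in edgeR). MT1F had 2.37 and 2.07 CPM in OE, against 1.96 and 2.42 CPM in Lipo. In all, 1 of the 6 detected members was called, MT2A, which was higher in OE, while 12.3% of all genes tested were called, 6.79% higher and 5.53% lower. The groups did not overlap for 5 of the 6, 3 higher and 2 lower, beside 65.6% of all genes (32.8% higher and 32.8% lower). The median log2 fold change of the 6 was 0.22, beside -0.0071 over all genes.

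Lipo was set against WT as a comparison of libraries that are both labelled wild type. None of the 6 detected members was called by edgeR (0 at an unadjusted p under 0.05, and 0 by DESeq2), where 3.7% of all genes were (1.32% higher and 2.38% lower). MT2A had 270 and 277 CPM in Lipo, against 261 to 401 CPM in WT (log2 -0.18, SE 0.17, adjusted p = 0.626 in edgeR). MT1E lay within the WT range in both Lipo libraries (log2 -0.08, SE 0.25), and the difference was 0.31 without WT 1. MTF1 was just above all WT libraries in both Lipo libraries (log2 0.14, SE 0.16) and SLC30A1 just below them (-0.33, SE 0.23, or -0.11 without WT 1), so that groups did not overlap for 2 of the 6, beside 43.6% of all genes (21.3% higher and 22.2% lower). This comparison and that of KO share the WT libraries.

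**Figure D4:**
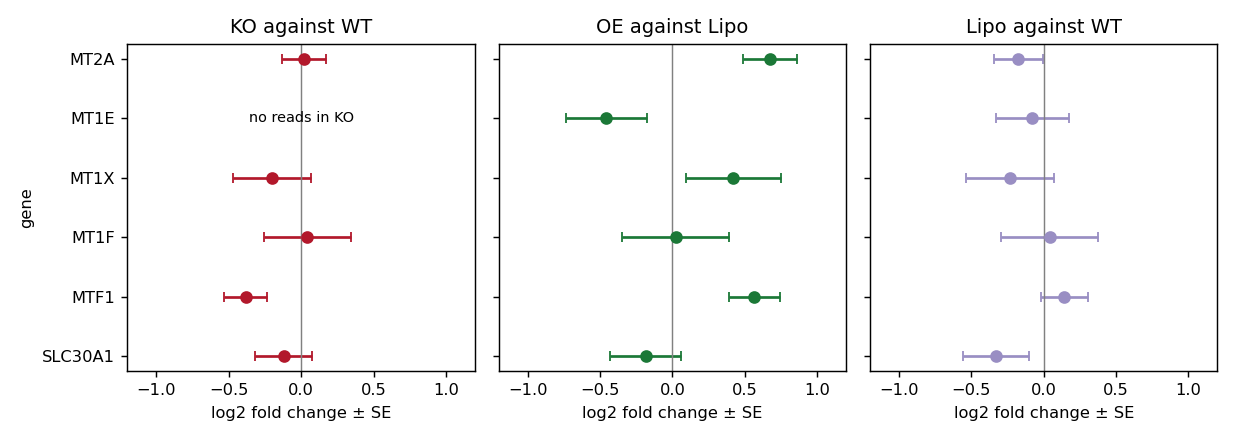
Fitted log2 fold change ± SE of the 6 detected members in KO against WT, OE against Lipo and Lipo against WT. MT1E has no KO reads and so no fitted value there. In OE against Lipo, MT2A at 0.68 and MTF1 at 0.56 lie on the opposite side of 0 from MT1E at -0.46.

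The sequences before the starts of MT2A and MT1X are shown because both genes are known targets of MTF1. MT2A was called in OE and MT1X was not, but both were higher in OE than in Lipo. Their log2 differences were 0.68 (SE 0.19) for MT2A and 0.42 (SE 0.33) for MT1X. Whether the genes differ from each other in OE was not tested. The windows hold the 250 bases before the RefSeq start (GRCh38.p14, plus strand), which lies inside the GENCODE gene in both cases, and capitals mark the metal response element core, searched as TGCACNC and TGCGCNC on both strands, overlaps included.
MT2A, chr16:56608334-56608583: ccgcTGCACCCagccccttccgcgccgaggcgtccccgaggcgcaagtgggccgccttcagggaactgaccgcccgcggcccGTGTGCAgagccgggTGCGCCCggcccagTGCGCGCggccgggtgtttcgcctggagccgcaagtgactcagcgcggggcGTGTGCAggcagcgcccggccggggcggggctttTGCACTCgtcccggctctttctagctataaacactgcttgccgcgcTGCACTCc
MT1X, chr16:56682220-56682469: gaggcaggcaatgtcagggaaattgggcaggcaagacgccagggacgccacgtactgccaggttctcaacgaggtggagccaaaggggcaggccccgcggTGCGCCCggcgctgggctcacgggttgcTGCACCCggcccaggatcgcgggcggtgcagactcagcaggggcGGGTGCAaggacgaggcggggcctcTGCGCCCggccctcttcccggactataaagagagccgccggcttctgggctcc

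MT2A had 7 matches to the core and MT1X had 4. Among 35116 RefSeq windows of this length, 24.8% held at least 1 match, 0.370% held at least 4 and 0.0313% at least 7. SLC30A1 had 1 match and MTF1 had 0. CpG pairs, the sites that TET1 acts on when methylated, numbered 32 in the MT2A window, 22 in those of MT1X and SLC30A1 and 20 in that of MTF1, where the median window had 11. The promoter table matched these 4 of the 8 members. MT1E, MT1F, MT1G and MT1M are named only. Matches are descriptions of letters, and methylation was not measured here.

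The other zinc transporters did not pass in the edgeR fit of all 10 libraries, but some passed in other fits. Of 9 further zinc exporters of the SLC30 family, 4 were tested, and of 14 importers of the SLC39 family, 9 were tested. None of these 13 passed in that fit in any of the comparisons. At an unadjusted p under 0.05 there were 0 exporters and 2 importers in KO against WT, 2 and 3 in OE against Lipo, and 1 and 4 in Lipo against WT. DESeq2 called 1 of the 6 exporters and 13 importers it tested, SLC39A14, an importer of zinc and manganese, at 83.5 CPM in OE and 55.7 CPM in Lipo (log2 0.59, adjusted p = 0.0456). In edgeR, 1 importer rose in KO with no low-count filter or without KO 3. In OE, 2 exporters fell, 2 importers rose and 2 fell with WT as the control, and 2 exporters fell, 1 importer rose and 2 fell with only the groups compared. In Lipo against WT, 2 importers rose with no low-count filter and 1 with only the groups compared. Median log2 differences of the exporters tested were 0.056 in KO and -0.28 in OE. Those of the importers were -0.22 in KO and -0.08 in OE. Over all genes the medians were 0.0034 and -0.0071.

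Of 11 genes of copper handling tested, 2 rose and 2 fell in OE, where 6.79% of all genes rose and 5.53% fell. SLC31A2, which aids copper uptake, had 5.85 ± 2.20 CPM in OE against 1.75 ± 0.358 CPM in Lipo (log2 1.74, edgeR adjusted p = 0.00464), and its call ended without Lipo 2 or OE 2. SCO2, an assembly factor of cytochrome oxidase, had 40.9 ± 0.363 CPM in OE against 23.6 ± 1.97 CPM in Lipo. The copper pumps ATP7A (15.8 ± 0.506 in OE, 26.1 ± 0.544 CPM in Lipo) and ATP7B (2.64 ± 0.0384 in OE, 5.71 ± 1.66 CPM in Lipo) were lower. The calls of SCO2, ATP7A and ATP7B ended without any 1 of the OE and Lipo libraries, those of ATP7A and ATP7B also without WT 2 or KO 2, and that of ATP7A without WT 3. In KO, 1 of 11 rose, beside 5.13% of all genes. It was the copper regulator COMMD1 (log2 0.54, edgeR adjusted p = 0.0318), and the call ended on leaving out any 1 library other than WT 1 or KO 2.

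Of 9 genes of iron handling tested, 2 fell in KO, and 2 fell and 1 rose in OE. The shares over all genes were 7.45% fallen in KO, and 5.53% fallen and 6.79% risen in OE. ACO1, the iron regulatory protein that doubles as cytosolic aconitase, fell in KO to 48.6 ± 8.64 CPM, against 104 ± 9.71 CPM in WT (log2 -1.10, edgeR adjusted p = 1.12e-04). It also fell in OE, to 36.2 ± 0.0388 CPM against 113 ± 10.7 CPM in Lipo (log2 -1.64, edgeR adjusted p = 1.69e-05). Both calls held without any 1 of the 10 libraries. HEPH, a ferroxidase, fell in KO to 1.92 ± 0.449 CPM, against 6.01 ± 0.441 CPM in WT. The iron exporter SLC40A1 fell in OE to 37.5 ± 4.01 CPM, against 79.3 ± 1.30 CPM in Lipo, while the ferritin heavy chain FTH1 rose to 4642 ± 191 CPM in OE, against 2960 ± 4.29 CPM in Lipo. SLC40A1 and HEPH kept their calls without any 1 library, and FTH1 did not pass without Lipo 2, Lipo 3 or OE 2. The median log2 fold change of the list was -0.05 in KO and -0.37 in OE, beside 0.0034 and -0.0071 over all genes.

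In Lipo against WT, 2 of the 9 rose and 1 fell, where 1.32% of all genes rose and 2.38% fell. The mitochondrial share was higher in both Lipo libraries than in any WT library, and its part in the Lipo changes given here and below was not tested. FTL, the ferritin light chain, was at 1547 ± 0.415 CPM in Lipo against 887 ± 67.4 CPM in WT (log2 0.80, edgeR adjusted p = 0.00351), and FTH1 was higher by 0.47 and SLC40A1 lower by 0.67 on the log2 scale. The call of FTL ended without Lipo 2 or Lipo 3, that of FTH1 without any 1 of the OE or Lipo libraries, WT 2 or WT 3, and that of SLC40A1 without any 1 library other than KO 1 or KO 3. The comparisons of OE with Lipo and of Lipo with WT share the Lipo libraries.

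Of 11 genes of metal and oxidative stress tested, 2 rose and 2 fell in OE, and 1 rose and 1 fell in KO. Over all genes, 6.79% rose and 5.53% fell in OE, and 5.13% rose and 7.45% fell in KO. HMOX1, the heme oxygenase, had 76.4 ± 4.30 CPM in OE against 44.9 ± 1.77 CPM in Lipo (log2 0.77, edgeR adjusted p = 0.0152), and Lipo stood above WT, at 25.4 ± 1.90 CPM (log2 0.82, adjusted p = 0.0156 in edgeR, lost without Lipo 2 or Lipo 3). The chaperone HSPH1 was higher in OE (log2 0.59), and the cystine transporter SLC7A11 (-0.74) and the quinone reductase NQO1 (-0.46) were lower. The OE calls of HMOX1, HSPH1, SLC7A11 and NQO1 ended without any 1 of the OE and Lipo libraries, those of HSPH1, SLC7A11 and NQO1 also without WT 2, those of HSPH1 and SLC7A11 without KO 2, and those of SLC7A11 and NQO1 with WT as the control. In KO, TXNRD1, the cytosolic thioredoxin reductase, fell to 1121 ± 176 CPM, against 1671 ± 71.9 CPM in WT (log2 -0.58, edgeR adjusted p = 0.00546), and held without any 1 library. NQO1 rose by 0.33 in KO (edgeR adjusted p = 0.0484), a call that ended on leaving out any 1 library other than WT 1 or KO 2.

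In a list of genes known as glucocorticoid targets, which also holds the receptor gene NR3C1, 4 of 8 tested fell in KO. Of all genes tested, 7.45% fell. The median log2 difference of the list was -0.60, beside 0.0034 over all genes. Of those not called, PER1 (-0.51), KLF9 (-0.44) and NR3C1 (-0.06) were lower in KO and TSC22D3 (0.27) was higher. The summed fibroblast and lung epithelial markers were also lower in KO than in WT, as given above, and their part was not tested. ERRFI1, a feedback inhibitor of EGFR, had 718 ± 77.9 CPM in KO against 1279 ± 31.2 CPM in WT (log2 -0.83, edgeR adjusted p = 1.19e-04). FKBP5, a chaperone of the glucocorticoid receptor, had 43.5 ± 9.67 CPM in KO against 78.0 ± 7.64 CPM in WT. The phosphatase DUSP1 (36.1 ± 11.8 in KO, 61.5 ± 6.12 CPM in WT) and the kinase SGK1 (7.43 ± 1.34 in KO, 11.9 ± 1.10 CPM in WT) fell as well, DUSP1 not without KO 3 and SGK1 not without WT 2 or KO 2. None passed in OE, where 1 had an unadjusted p under 0.05 and DESeq2 called 1 as lower. In Lipo against WT, 1 of the 8 rose, beside 1.32% of all genes. It was the leucine zipper gene TSC22D3 (137 ± 0.00313 CPM in Lipo, n = 2, and 84.6 ± 0.876 CPM in WT, n = 3). Its call ended without Lipo 2 or Lipo 3.

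Of 12 tested genes on either side of the metallothionein cluster on chromosome 16, 2 rose and 1 fell in OE, and 1 fell in KO. Over all genes, 6.79% rose and 5.53% fell in OE, and 7.45% fell in KO. NLRC5, a regulator of MHC class I genes, rose 6.77-fold in OE, to 78.5 ± 6.01 CPM against 11.6 ± 2.95 CPM in Lipo (edgeR adjusted p = 6.07e-06, kept without any 1 library). HERPUD1, a gene of the unfolded protein response, rose by 0.50 on the log2 scale in OE. BBS2, a gene of primary cilia and the nearest coding gene past MT4, fell in OE (12.2 ± 0.374 CPM in OE, 21.2 ± 2.89 CPM in Lipo) and in KO (16.4 ± 1.09 CPM in KO, 23.4 ± 3.43 CPM in WT, edgeR adjusted p = 0.0430). HERPUD1 did not pass without any 1 of the OE and Lipo libraries, and BBS2 in OE did not without Lipo 2, OE 1 or OE 2. The call of BBS2 in KO ended on leaving out any 1 library other than WT 1 or KO 1.

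Among the genes whose log2 CPM followed MT1E most closely over the 10 libraries were EEF1A2 (Pearson r = 0.994), SIMC1 (0.993), CTSZ (0.992) and ENG (0.991), out of 10464 genes with a mean log2 CPM of at least 2. MT1E varies mostly through its lack of reads in KO, so genes picked this way are low in KO by the choice itself. EEF1A2, the closest, averaged 5.73 CPM in KO, against 160 CPM in OE, 156 CPM in Lipo and 144 CPM in WT. The summed metallothionein level, which is highest in OE and WT 1, was followed most closely by the chemokine CXCL2 (r = 0.927), COPRS (0.924), RRP36 (0.923), C11orf24 (0.917) and RNF216P1 (0.910). These r describe 10 libraries that share groups and scaling, and carry no test.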

How the data were processed

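RNA of H441 cells was sequenced in 10 libraries made with a stranded total RNA kit, per the labels. The deposited values are raw counts of reads per gene. Per the submitters' processing notes the tools were HISAT2 2.1.0, FastQC, featureCounts and edgeR, on GRCh38, with no role given. Another 2 columns matched no sample and were not used, and ANK2 carried no values.

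Counts were fitted with edgeR 4.0.16 in R 4.3.3 (filterByExpr on the 4 groups, TMM, robust quasi-likelihood over all 10 libraries), which tested 15832 genes and left 6 residual degrees of freedom. P-values are two-sided and adjusted by Benjamini-Hochberg over all genes, with a threshold of 0.05. CPM uses the TMM-scaled library size, RPKM divides by the union of GENCODE 29 exons, and ± is SD. For OE and Lipo the SD rests on 2 libraries, so a very small SD there is no measure of precision. Nothing in the labels tells whether replicates were grown separately, so p-values measure the spread between libraries, which may be technical. Promoter windows are from RefSeq.

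The members and the gene lists were chosen with earlier results of these data known. Named are all members, up to 4 called genes of each list by smallest p, and the 5 genes most like MT1E or the family sum (prior count 2, mean log2 CPM of at least 2). One gene that this rule names is not reported here. SLC39A14 was named after its values were seen. The alternatives tried were scaling by RLE or by library size only, DESeq2 1.42.0, no filter or a stricter one on low counts (1 CPM in 3 libraries, total of 100), a fit of only the groups compared, other controls, a replicate block and each library left out. Leaving out WT 1 and KO 1 together was added after seeing the data, as were part of the alternatives for list genes and for the MT1E bound.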

Additional observations from a re-analysis of the deposited data

How the results depend on the processing

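The fold change of MT2A in OE against Lipo kept its direction under all 19 alternatives, with log2 values between 0.50 and 0.69, and that of MTF1 did too, between 0.51 and 0.71. The number of detected members called in OE against Lipo was 2 with RLE scaling, DESeq2, the stricter filter, WT as the control or the replicate block, 3 with only the groups compared or with WT 1 and KO 1 left out together, and 0 to 2 when 1 library was left out. The summed metallothionein level in OE was 477 CPM with library size alone and 486 to 497 CPM without 1 library. Directions turned for values that had passed no test. In KO against WT, without 1 library, MT2A ran from -0.085 to 0.25, MT1F from -0.13 to 0.21 and SLC30A1 from -0.24 to 0.09 in log2 fold change, and MT1X was 0.12 without WT 1 and KO 1. In Lipo against WT, MT1E had a log2 fold change of 0.15 with the replicate block, 0.31 without WT 1 and KO 1, and -0.28 to 0.31 without 1 library; MT2A had 0.057 without WT 1 and KO 1 and -0.30 to 0.056 without 1 library; MT1F had -0.015 with library size alone and -0.12 to 0.18 without 1 library. In OE against Lipo, MT1F ran between -0.13 and 0.17 without 1 library. The cause was not tested.

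Over all genes, KO against WT gave 1992 calls, 1216 with only the groups compared and 1125 to 2297 without 1 library. OE against Lipo gave 1950 calls, 5664 with only the groups compared, 3953 with WT as the control, 3477 without WT 1 and KO 1, and 673 to 2657 without 1 library. Lipo against WT gave 586 calls, 992 with DESeq2, 1100 with no low-count filter, 1157 without WT 1 and KO 1, and 34 to 977 without 1 library. Same-numbered KO and WT libraries correlated at 0.328, 0.0577 and 0.185 in their deviations from the group means. Differently numbered ones correlated at -0.238 to 0.0920. These values do not settle whether the numbers pair the samples, and the main fit held no replicate block. With the block there were 2874 calls in KO against WT, 2678 in OE against Lipo and 850 in Lipo against WT. In that fit MTF1 in OE against Lipo had an edgeR adjusted p of 0.0360. Zinc transporters gained calls with the replicate block too, 1 importer risen in KO, and 2 exporters fallen, 2 importers risen and 1 fallen in OE. Depth limits MT1F most, at 43 to 62 reads per library. Among the list genes, further calls ended with only the groups compared (COMMD1, NQO1, SGK1 and BBS2 in KO), with all 5 libraries labelled wild type as the control (NQO1 and BBS2 in KO), with library size alone (BBS2 in KO, HSPH1 in OE and FTH1 in Lipo), with no low-count filter (NQO1 in KO and HERPUD1 in OE) and with the replicate block (ATP7B, SLC7A11 and HSPH1 in OE).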
